A study of Mus musculus with 12 samples.

Results

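Ephrins are membrane-bound guidance ligands, and the 8 ephrin genes of the mouse, Efna1, Efna2, Efna3, Efna4, Efna5, Efnb1, Efnb2 and Efnb3, were followed here by gene symbol among the 46603 genes counted in developing neocortex. RNA-seq was performed on microdissected neocortex of C57Bl/6J mice at embryonic day 12.5 (E12.5, both hemispheres) and at postnatal day 5 (P5, 1 hemisphere), with 3 Chd8+/+ and 3 Chd8+/- libraries at each stage, 12 in all. Chd8+/- mice carried 1 null allele of the chromatin remodeller Chd8, made by germline deletion of a loxP-flanked exon 3 with a ubiquitous β-actinCre, and Chd8+/+ mice were their controls. The null allele is therefore present in every cell type of the tissue, and no other allele or treatment is named for any group. All 8 genes passed the filter on low counts at both stages.

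An ephrin acts on cells that touch the cell carrying it. The 5 ephrin-A proteins are tethered to the membrane by a lipid anchor and bind mainly EphA receptors, whereas the 3 ephrin-B proteins span the membrane and bind mainly EphB receptors, with EphA4 able to bind both classes. Receptor-bearing cells receive a forward signal, which often repels an axon, and the ephrin-bearing cell receives a reverse signal. In the forebrain, ephrin-A gradients help to set the order of thalamic axons in the cortex, Efnb1 is a gene of cortical progenitors, Efnb2 marks arterial endothelium as well as neural cells, and Efnb3 at the spinal midline keeps corticospinal axons from recrossing.

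Of the 8 genes, 3 lie in a cluster on chromosome 3 of GRCm38, all on the reverse strand: Efna1 at chr3:89271733-89281142, Efna3 at chr3:89313899-89322965 and Efna4 at chr3:89333390-89338028. Efna3 and Efna4 are separated by 10425 bases with no gene wholly between them. The others stand alone, with Efna2 at chr10:80179482-80190010, Efna5 at chr17:62604184-62881317, Efnb1 at chrX:99136130-99148991, Efnb2 at chr8:8617434-8660773 and Efnb3 at chr11:69554092-69560205. Efna5 is the longest at 277134 bases, and Efna4 the shortest at 4639 bases. Both members of that pair share exon bases with antisense genes, and the other 6 overlap no gene. Efna3 shares 344 bases, 14.13% of its exon length, with Gm15998, which had 12 to 38 counts in any library against 345 to 3260 for Efna3. Efna4 shares 168 bases, 10.51% of its exon length, with 4731419I09Rik, which had 31 to 70 counts against 141 to 815 for Efna4.

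The upstream sequences of Efna3, Efna4 and Efnb1 are shown because Efna3 and its neighbour Efna4 moved in opposite directions between the stages, and Efnb1 had the largest fall. Each run covers the 220 bases from 250 to 31 before the gene's first base in RefSeq on GRCm38.p6, written 5′ to 3′ on the strand of the gene, at chr3:89322970-89323189 (reverse strand), chr3:89338059-89338278 (reverse strand) and chrX:99135811-99136030 (forward strand). Capitals mark matches, on either strand, to any of 4 short motifs. The GC box is spelled GGGCGG and is bound by Sp factors. The motif of the factor NF-Y is spelled CCAAT. The motif of the TATA-binding protein is spelled TATAAA. The E-box searched, one used by neural bHLH factors, is spelled CAGCTG.
Efna3 upstream: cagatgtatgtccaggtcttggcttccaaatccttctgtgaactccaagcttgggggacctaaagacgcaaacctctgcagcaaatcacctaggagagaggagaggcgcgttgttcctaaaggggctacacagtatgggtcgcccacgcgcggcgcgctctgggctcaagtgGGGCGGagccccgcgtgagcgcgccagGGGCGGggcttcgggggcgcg
Efna4 upstream: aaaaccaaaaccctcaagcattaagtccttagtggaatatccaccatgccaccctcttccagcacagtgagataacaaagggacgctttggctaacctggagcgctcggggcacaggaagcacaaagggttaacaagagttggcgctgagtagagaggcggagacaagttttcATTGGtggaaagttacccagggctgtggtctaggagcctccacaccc
Efnb1 upstream: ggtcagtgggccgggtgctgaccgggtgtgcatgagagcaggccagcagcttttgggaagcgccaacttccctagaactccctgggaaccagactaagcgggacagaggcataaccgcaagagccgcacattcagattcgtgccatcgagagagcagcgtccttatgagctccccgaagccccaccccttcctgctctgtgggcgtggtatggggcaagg
The Efna3 window printed here held 2 GC boxes and 63.2% G or C, the Efna4 window held 1 NF-Y motif and 51.8% G or C, and the Efnb1 window held no match and 61.4% G or C. A second Efna3 window, chr3:89321799-89322018, is not printed and held 3 GC boxes and 70% G or C. RefSeq gave 9 such windows for 7 of the members, all but Efnb3. Of these windows 6 held a GC box, 2 held an NF-Y motif, and 0 held a TATA motif or an E-box. Over all 32851 windows of this length, 28.5% held a GC box, 31% an NF-Y motif, 9.95% a TATA motif and 11.4% an E-box. Their median was 51.8% G or C, with quartiles of 45 and 60.5%, while the 9 ephrin windows had 51.8 to 75.5%. The part of base composition in the count of GC boxes was not tested. No marked match overlapped another motif. These matches describe letters in a window and are not binding sites.

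The libraries held 38774591 to 54695236 counts each. Chd8, the targeted gene, was lower in every Chd8+/- library than in every Chd8+/+ library of its stage. Its normalised counts, as CPM (a gene's counts scaled to the library size), were 233.5, 228.6 and 235.5 in Chd8+/+ and 162.1, 167.3 and 161.1 in Chd8+/- at E12.5, and 150.6, 151.0 and 145.4 against 95.70, 98.64 and 95.01 at P5. The neocortical genes Emx1 and Tbr1 were detected in every library, at 35.22 to 53.82 CPM and 180.1 to 240.2 CPM at E12.5 and at 22.27 to 27.10 CPM and 115.0 to 124.5 CPM at P5. The E12.5 Chd8+/- replicate 2 library stood apart: it had the lowest E12.5 levels of Emx1 (35.22 CPM) and Tbr1 (180.1 CPM) and the highest sum for 8 genes of the meninges, the membranes over the cortex (1076 CPM, against 515.6 to 790.8 CPM in the other E12.5 libraries). The P5 Chd8+/- replicate 3 library differed most in its counts from its group, with a chi-square per degree of freedom of 49.65 and 43.71 against the other two libraries, which differed from each other by 11.41. In each group 1 of the 3 libraries had high counts of Xist, the RNA of the inactive X chromosome. No label says whether libraries of a group came from different litters, so the p-values below measure the spread between these libraries.

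Levels are given as RPKM, that is CPM divided by the exon length of the gene in kilobases, so that genes of different length can be compared. At E12.5 the pool of ephrin transcripts was led by the 3 ephrin-B genes. In Chd8+/+ the means were 76.6 ± 7.10 RPKM (SD, n = 3) for Efnb1, 53.7 ± 2.29 for Efnb2 and 41.4 ± 0.832 for Efnb3, followed by Efna2 at 20.2 ± 1.60, Efna4 at 9.68 ± 0.434, Efna5 at 8.06 ± 1.12, Efna3 at 4.12 ± 0.698 and Efna1 at 3.05 ± 0.187. Chd8+/- had the same order, and in both genotypes the libraries of Efna4 and Efna5 overlapped while those of every other pair of neighbours in the order did not. Efnb1 ranked high among all genes too: 2.71% of the 19676 genes tested had a higher mean RPKM in E12.5 Chd8+/+ libraries.

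At P5 the order had changed. Efnb3 led in Chd8+/+ at 97.2 ± 2.41 RPKM (SD, n = 3), followed by Efnb2 at 30.6 ± 0.966, Efna3 at 24.4 ± 0.669, Efna2 at 13.6 ± 0.939, Efnb1 at 9.36 ± 0.606, Efna5 at 5.60 ± 0.415, Efna4 at 2.40 ± 0.323 and Efna1 at 1.87 ± 0.305. Chd8+/- again had the same order. Neighbours overlapped for Efna4 and Efna1 in Chd8+/+, and for no pair in Chd8+/-. Efnb3 now had 2.00% of genes above it in Chd8+/+, and Efnb1 had moved from the first place among the ephrins to the fifth.

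**Figure D1:**
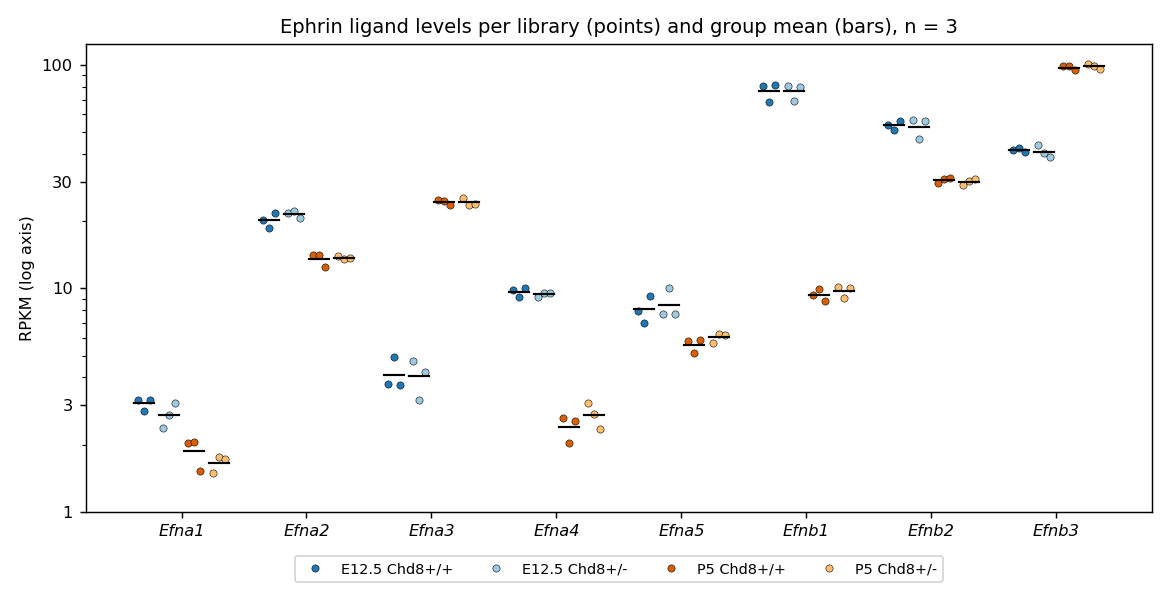
RPKM of the 8 ephrin ligand genes (horizontal) on a logarithmic vertical axis, with 1 point per library, a bar at the mean of each group of 3, and a colour for each stage and genotype. Efna3 and Efnb3 sit higher at P5 than at E12.5, the other 6 genes sit lower, and the genotypes of each stage overlap for all 8.

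The summed level of the 8 genes was 216.8 ± 10.9 RPKM (SD, n = 3) in E12.5 Chd8+/+ and 185.0 ± 3.82 RPKM in P5 Chd8+/+. Within that sum the ephrin-B genes made up 78.7 to 79.7% in E12.5 Chd8+/+, 76.5 to 79.8% in E12.5 Chd8+/-, 73.5 to 74.5% in P5 Chd8+/+ and 73.8 to 74.3% in P5 Chd8+/-. The classes kept their order, and the genes within each class exchanged places. Efnb1 went from 33.4 to 36.4% of the pool in E12.5 Chd8+/+ libraries to 4.86 to 5.33% in P5 Chd8+/+ libraries, and Efnb3 from 18.01 to 20.66% to 52.3 to 52.7%. Efna3 went from 1.64 to 2.41% to 13.1 to 13.3%, and became the largest ephrin-A gene in place of Efna2.

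**Figure D2:**
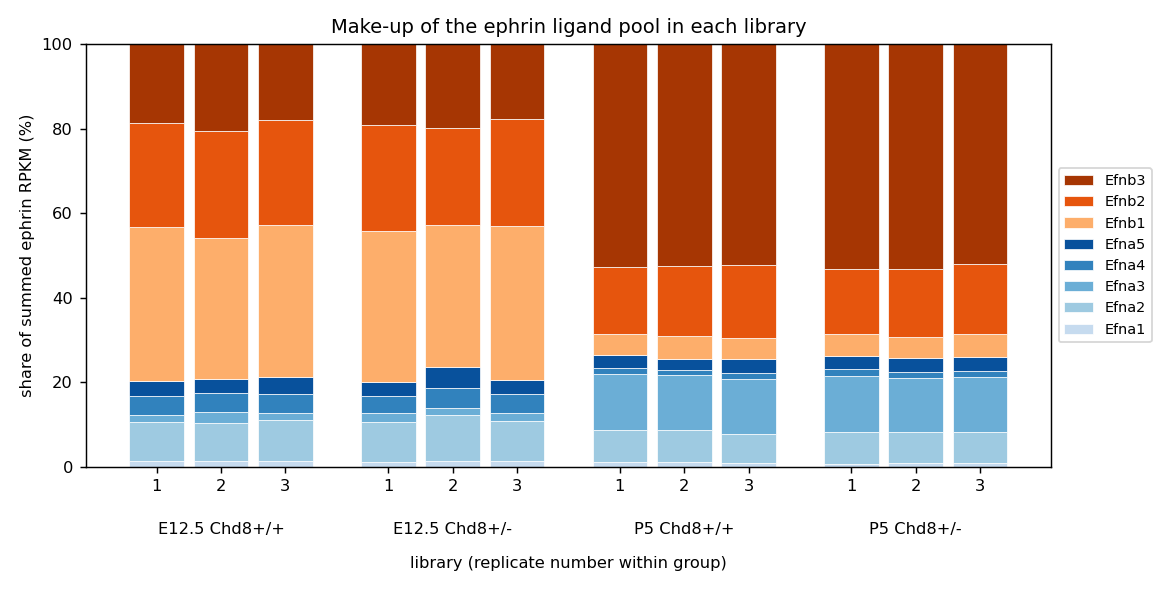
Share of the summed ephrin RPKM (vertical, percent) held by each of the 8 genes in each of the 12 libraries (bars, grouped by stage and genotype), with ephrin-A genes in blue and ephrin-B genes in orange. Efnb1 holds the largest share in every E12.5 library, 33.4 to 36.4%, and Efnb3 holds 52.0 to 53.2% in every P5 library.

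The first comparison was between the stages. Every one of the 8 genes changed: Efna3 and Efnb3 rose from E12.5 to P5 and Efna1, Efna2, Efna4, Efna5, Efnb1 and Efnb2 fell, in both genotypes. The largest fall was that of Efnb1, to 8.18-fold lower in Chd8+/+, and the largest rise that of Efna3, to 5.94-fold higher. All 8 had an adjusted p under 0.05 by edgeR's quasi-likelihood test with Benjamini-Hochberg adjustment over 19676 genes, but so did 83.1% of all genes in Chd8+/+ and 82.9% in Chd8+/-, so that a call by itself says little about an ephrin gene. By direction, 41.4% of genes rose and 41.7% fell in Chd8+/+ (41.3% and 41.6% in Chd8+/-). All 8 also had E12.5 libraries that did not overlap with P5 libraries over the 12 libraries, as had 75.6% of genes. Of the 8, 4 changed at least 2-fold (Efnb1, Efna3, Efna4 and Efnb3), against 46.5% of genes in Chd8+/+ and 46.8% in Chd8+/-. With offsets for gene length Efnb3 no longer reached 2-fold (log2 fold change 0.94 in Chd8+/+ and 0.99 in Chd8+/-), and Efnb2 did (-1.09 and -1.06). The median size of the log2 fold change was 1.02 over the 8 genes and 0.93 over all genes in Chd8+/+. Stage and sequencing round cannot be told apart, because the stages have separate sequencing runs and count tables. In bulk tissue, fewer cells of a type and less RNA per cell cannot be told apart either.

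Efnb1, whose product is a transmembrane ligand of EphB receptors and whose loss disturbs craniofacial development, had 80.3, 68.4 and 81.0 RPKM in E12.5 Chd8+/+ and 80.3, 68.6 and 79.6 RPKM in E12.5 Chd8+/-. At P5 it had 9.33, 9.98 and 8.77 RPKM in Chd8+/+ and 10.1, 9.06 and 10.01 RPKM in Chd8+/-. Every P5 library lay below every E12.5 library by a wide margin, and replicate 2 was the lowest E12.5 library in both genotypes. Its log2 fold change from E12.5 to P5 was -3.03 ± 0.08 (SE, 95% confidence interval -3.21 to -2.86, edgeR adjusted p = 7.14e-14) in Chd8+/+ and -2.97 ± 0.08 (edgeR adjusted p = 8.79e-14) in Chd8+/-. Of all genes tested, 2.89% fell further than Efnb1 in Chd8+/+ and 3.25% in Chd8+/-. Efnb1 is X-linked, and with a term for the libraries with high Xist the fall was still called in both genotypes. Each group held the same number of such libraries, so this term could hardly move the stage estimate. The part of sex in the fall was not tested.

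Efnb2, the ephrin of arterial endothelium that is also expressed by neural cells, had 53.9, 51.3 and 55.9 RPKM in E12.5 Chd8+/+ and 56.6, 46.5 and 55.9 RPKM in E12.5 Chd8+/-. It had 29.5, 30.9 and 31.3 RPKM in P5 Chd8+/+ and 29.1, 30.1 and 30.7 RPKM in P5 Chd8+/-. The stages did not overlap, and the low E12.5 value of 46.5 RPKM was that of the replicate 2 library with high meningeal genes. Its log2 fold change was -0.81 ± 0.06 (SE, edgeR adjusted p = 1.91e-08) in Chd8+/+ and -0.82 ± 0.06 (edgeR adjusted p = 1.71e-08) in Chd8+/-, a level 1.76-fold lower in Chd8+/+. The 6 arterial genes of the marker list summed to 84.18 to 98.19 CPM at E12.5 and 50.15 to 55.61 CPM at P5, but 1 gene, Hey1, which is not limited to arteries, made up most of that sum, with means of 68.16 and 29.95 CPM in Chd8+/+. Of the other 5, Gja5 was called lower in Chd8+/+ (5.79 and 1.43 CPM), Dll4 was called higher (6.29 and 8.08 CPM), and Gja4 (8.32 and 8.82 CPM), Sox17 (4.98 and 4.94 CPM) and Bmx (0.487 and 0.693 CPM) were not called. In Chd8+/- 2 of the 6 arterial genes were called higher and 2 lower, against 1 and 2 in Chd8+/+. The part of arterial cells in the fall of Efnb2 was not tested.

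Efnb3, the midline ephrin of the corticospinal system, rose. It had 41.4, 42.3 and 40.6 RPKM in E12.5 Chd8+/+ and 43.6, 40.5 and 38.8 RPKM in E12.5 Chd8+/-. It had 98.7, 98.5 and 94.4 RPKM in P5 Chd8+/+ and 100.5, 99.1 and 95.7 RPKM in P5 Chd8+/-. All P5 libraries lay above all E12.5 libraries, and the libraries of each group were close together. Its log2 fold change was 1.23 ± 0.05 (SE, edgeR adjusted p = 3.91e-12) in Chd8+/+ and 1.27 ± 0.05 (edgeR adjusted p = 2.83e-12) in Chd8+/-, a 2.35-fold and a 2.40-fold rise. The ratio of Efnb3 to Efnb1, which does not depend on the scaling of a library, was 0.501 to 0.618 in E12.5 Chd8+/+ and 9.87 to 10.8 in P5 Chd8+/+. In Chd8+/- it was 0.487 to 0.590 at E12.5 and 9.56 to 10.9 at P5.

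Efna3, a lipid-anchored ligand of EphA receptors, had 3.73, 4.92 and 3.69 RPKM in E12.5 Chd8+/+ and 4.73, 3.17 and 4.21 RPKM in E12.5 Chd8+/-. It had 24.9, 24.6 and 23.6 RPKM in P5 Chd8+/+ and 25.4, 23.6 and 23.8 RPKM in P5 Chd8+/-. The stages were far apart, and the E12.5 libraries were spread more widely around their mean (coefficient of variation 16.97% and 19.6% in the 2 genotypes) than the P5 libraries (2.74% and 3.95%). The log2 fold change was 2.57 ± 0.12 (SE, edgeR adjusted p = 5.19e-11) in Chd8+/+ and 2.59 ± 0.12 (edgeR adjusted p = 5.08e-11) in Chd8+/-. Of all genes tested, 11.1% rose further in Chd8+/+ and 10.5% in Chd8+/-.

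Efna4, the neighbour of Efna3 and a ligand of the same receptor class, went the other way. It had 9.82, 9.19 and 10.01 RPKM in E12.5 Chd8+/+ and 9.13, 9.58 and 9.57 RPKM in E12.5 Chd8+/-. At P5 it had 2.62, 2.02 and 2.54 RPKM in Chd8+/+ and 3.07, 2.73 and 2.34 RPKM in Chd8+/-. The P5 values rest on 141 to 225 counts per library, and their coefficient of variation was 13.5% and 13.4% in the 2 genotypes. The log2 fold change was -2.01 ± 0.11 (SE, edgeR adjusted p = 1.35e-10) in Chd8+/+ and -1.80 ± 0.10 (edgeR adjusted p = 4.82e-10) in Chd8+/-. The ratio of Efna3 to Efna4 was 0.369 to 0.536 in E12.5 Chd8+/+ and 9.31 to 12.1 in P5 Chd8+/+, and it was 0.331 to 0.518 and 8.26 to 10.2 in Chd8+/-. The antisense gene over Efna4 had 34 to 69 counts per library at E12.5 and 31 to 70 at P5, and the share of its reads in the Efna4 counts was not tested.

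Efna1, Efna2 and Efna5 fell by smaller amounts. Efna5, a graded ligand that orders thalamic axons, had 7.90, 7.03 and 9.26 RPKM in E12.5 Chd8+/+ and 7.68, 10.02 and 7.65 RPKM in E12.5 Chd8+/-, and 5.82, 5.12 and 5.86 RPKM in P5 Chd8+/+ and 5.71, 6.23 and 6.18 RPKM in P5 Chd8+/-. The highest E12.5 value was again that of Chd8+/- replicate 2, and the nearest libraries of the stages had 7.03 and 6.23 RPKM. Its log2 fold change was -0.53 ± 0.11 (SE, edgeR adjusted p = 0.000553) in Chd8+/+ and -0.48 ± 0.11 (edgeR adjusted p = 0.00108) in Chd8+/-. Efna2, which also contributes to mapping in the visual system, had 20.2, 18.6 and 21.8 RPKM in E12.5 Chd8+/+ and 21.7, 22.3 and 20.7 RPKM in E12.5 Chd8+/-, and 14.1, 14.1 and 12.5 RPKM in P5 Chd8+/+ and 13.9, 13.6 and 13.6 RPKM in P5 Chd8+/-. Each stage formed a narrow band with a clear gap between them. Its log2 fold change was -0.58 ± 0.07 (SE, edgeR adjusted p = 1.32e-06) in Chd8+/+ and -0.65 ± 0.07 (edgeR adjusted p = 3.25e-07) in Chd8+/-. Efna1, an ephrin first known from endothelial cells, had 3.17, 2.84 and 3.15 RPKM in E12.5 Chd8+/+ and 2.36, 2.73 and 3.07 RPKM in E12.5 Chd8+/-, and 2.04, 2.06 and 1.52 RPKM in P5 Chd8+/+ and 1.49, 1.76 and 1.72 RPKM in P5 Chd8+/-. It was the lowest of the 8 in all 4 groups, with 114 to 301 counts per library, and its stages came close to each other. Its log2 fold change was -0.71 ± 0.13 (SE, edgeR adjusted p = 0.000213) in Chd8+/+ and -0.72 ± 0.14 (edgeR adjusted p = 0.000232) in Chd8+/-. The changes of these genes were smaller than the median size of change over all genes, except that with gene length offsets Efna1 in Chd8+/- had -0.98, level with a median size of 0.98. The same offsets gave -0.81 and -0.73 for Efna5 in Chd8+/+ and Chd8+/-.

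**Figure D3:**
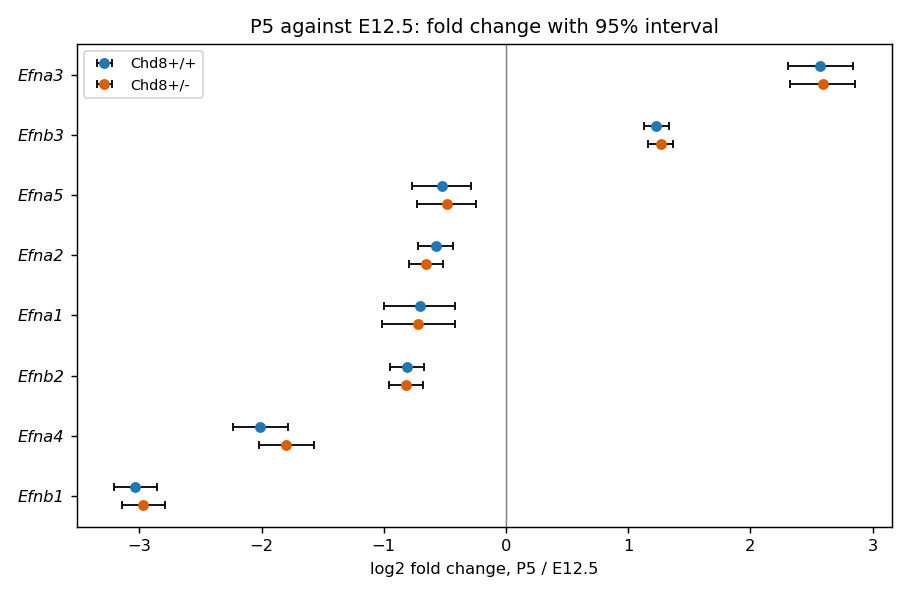
Log2 fold change from E12.5 to P5 (horizontal) of each ephrin ligand gene (rows, ordered by the change in Chd8+/+), with the 95% confidence interval from edgeR, for Chd8+/+ and Chd8+/- separately. Intervals of Efna3 and Efnb3 lie above 0 and those of the other 6 genes below 0, from -3.03 for Efnb1 to 2.57 for Efna3 in Chd8+/+.

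Marker genes of many cell types differed in level between the stages. All 10 progenitor genes of the marker list, among them Pax6, Sox2 and Nes, were called lower at P5 in both genotypes, with sums of 4350 to 4666 CPM at E12.5 and 272.4 to 325.8 CPM at P5. All 8 neuronal genes, among them Tubb3, Map2 and Snap25, were called higher, with sums of 2408 to 2895 CPM and 7310 to 7841 CPM. The 10 endothelial genes moved both ways, with 3 called higher and 5 lower at P5 in Chd8+/+ and 3 higher and 6 lower in Chd8+/-. In Chd8+/+ the mean of Cldn5, a tight junction protein, was 12.4 CPM at E12.5 and 59.1 CPM at P5, while that of Kdr, a VEGF receptor, was 77.7 and 51.7 CPM and that of Cdh5, the endothelial cadherin, was 60.5 and 33.9 CPM. Their sums, 272.5 to 316.9 CPM at E12.5 and 248.1 to 311.2 CPM at P5, do not show these opposite changes. Other lists also differed by stage. In Chd8+/+ the sums of 7 astrocyte genes were 359.9 to 382.7 CPM at E12.5 and 1713 to 1780 CPM at P5 (6 called higher), those of 8 oligodendrocyte lineage genes 125.7 to 136.5 and 492.4 to 537.0 CPM (7 higher), and those of 8 striatal neuron genes 23.62 to 26.11 and 322.1 to 353.5 CPM (8 higher). Sums of 6 microglial genes were 29.06 to 29.45 and 90.61 to 122.4 CPM (6 higher), those of 6 mural cell genes 98.31 to 110.1 and 257.4 to 276.1 CPM (3 higher), and those of 6 choroid plexus genes 90.66 to 147.1 and 442.2 to 573.9 CPM (4 higher, 2 lower). Ttr made up most of the choroid plexus sum at P5, with means of 53.86 and 464 CPM in Chd8+/+, while Otx2 went from 48.57 to 2.4 CPM. Lower sums at P5 were those of 6 erythrocyte genes, 3035 to 3708 and 116.7 to 125.9 CPM (1 higher, 5 lower), and of 8 meningeal genes, 617.6 to 790.8 and 418.2 to 442.1 CPM (2 higher, 5 lower). Against the fall of the meningeal sum, the mean of Crym went from 4.695 to 131.9 CPM in Chd8+/+, while that of Col3a1 went from 352.5 to 71.58 CPM. The 8 interneuron genes, at 630.3 to 653.2 and 637.7 to 655.1 CPM, had 3 called in each direction. No marker of these lists was at 0 in all libraries of a group. The part of any of these cell types in the ephrin changes was not tested.

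The genes closest to each ephrin over the 12 libraries were found by the root mean square difference of log2 CPM, each gene centred on its own mean, among 19675 other genes. Efnb1 was closest to Smo (0.08), the signal transducer of the Hedgehog pathway, and H2afv (0.08), and Efna4 to Cdc25b (0.08), a cell cycle phosphatase, and Tinf2 (0.11). Efna3 was closest to Mmp24 (0.08) and Negr1 (0.08), a neuronal adhesion molecule. Efnb3 was closest to Fbxl17 (0.04) and Tecpr1 (0.05), Efnb2 to Mxi1 (0.05) and Fsd1l (0.05), Efna2 to Csnk1d (0.05) and Dhx37 (0.05), Efna5 to Akap13 (0.07) and Sh3pxd2b (0.09), and Efna1 to Il1rl2 (0.10) and Zfp935 (0.11). These are descriptions of level over libraries that share 2 stages.

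The partners of the ephrins were described from 2 lists. Of the 14 Eph receptor genes, 6 were called higher and 7 lower at P5 in each genotype, where 41.4% of all genes were called higher and 41.7% lower in Chd8+/+. The largest falls were those of Epha3 (log2 fold change -2.67 in Chd8+/+) and Ephb4 (-2.20), and the largest rises those of Epha8 (4.6) and Epha10 (4.39) in Chd8+/+, and of Epha8 (4.36) and Epha6 (4.11) in Chd8+/-. Of 42 signalling partners tested, 20 were called higher and 18 lower in Chd8+/+, and 19 and 20 in Chd8+/-. As for the ligands, a call in these lists stands beside 83.1% of all genes called in Chd8+/+. Ngef, a guanine nucleotide exchange factor that EphA4 uses in growth cone collapse, went from 0.494 to 35.9 mean RPKM in Chd8+/+ (log2 fold change 6.19), and Grip2, a scaffold that binds the ephrin-B tail, from 1.13 to 13.03 (3.53). Ptpn13, a phosphatase with ephrin-B tails among its substrates, went from 5.44 to 1.52 mean RPKM (-1.84), and the tyrosine kinase gene Abl1 from 19.6 to 7.74 (-1.34). The same 4 signalling genes had the largest changes in Chd8+/-.

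**Figure D4:**
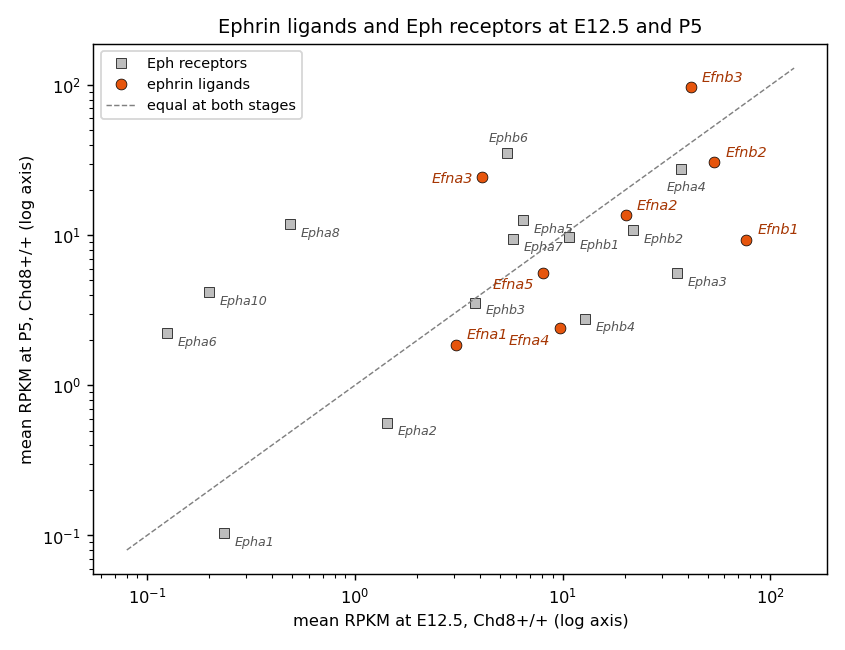
Mean RPKM over 3 Chd8+/+ libraries at E12.5 (horizontal, log axis) and at P5 (vertical, log axis) for the 8 ephrin ligand genes (circles) and the 14 Eph receptor genes (squares), with a dashed line where both stages are equal. Efnb3 and Efna3 lie above the line and the other 6 ligands below it, with Efnb1 farthest below, while receptors lie on both sides.

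The second comparison was between the genotypes, which asked whether loss of 1 Chd8 allele altered the ephrin genes at either stage. None of the 8 was called at E12.5 or at P5. At E12.5 edgeR called 0.00553% of 18081 genes, which is Chd8 alone, and 5.15% had an unadjusted p under 0.05, with 0 of the 8 ephrin genes among them. At P5 it called 0.00536% of 18666 genes, again Chd8 alone, and 17.8% had an unadjusted p under 0.05, again with 0 of the 8. The number of genes called at P5 depended on the libraries and the filter: it was 327 without Chd8+/- replicate 2, 136 at a threshold of 0.1 and 995 with no filter on low counts, with 0 of the 8 ephrin genes in each case. DESeq2, which called 5.28% of 12362 genes at P5, also called 0 of the 8, with no adjusted p for Efna1 and Efna4. Genotypes overlapped for all 8 genes at both stages, where 11.4% of genes at E12.5 and 23.4% at P5 did not overlap. The median log2 fold change of the 8 was -0.02 at E12.5 and 0.03 at P5, beside 0.00 over all genes at both stages.

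At E12.5 the log2 fold changes of Chd8+/- against Chd8+/+ were between -0.17 for Efna1 and 0.09 for Efna2. The precision differed among the genes. Efnb3 changed by -1.23% with a 95% confidence interval of -8.48 to 6.59%, Efnb2 by -1.39% (-12.3 to 10.9%) and Efnb1 by -0.530% (-12.3 to 12.8%). The interval of Efna4 was -12.03 to 7.89% and that of Efna2 was -3.80 to 18.2%. Those of Efna1 (-26.2 to 7.71%), Efna3 (-23.7 to 26.1%) and Efna5 (-13.5 to 26.9%) were wider. The lowest edgeR adjusted p was 0.957, that of Efna2. Single libraries moved the outermost estimates by over 1.5 times: that of Efna1 was -0.075 without Chd8+/- replicate 1 and -0.26 without Chd8+/- replicate 3, and that of Efna2 was 0.041 without Chd8+/+ replicate 2 and 0.15 without Chd8+/+ replicate 3, the last with an unadjusted edgeR p of 0.0487 and an adjusted p of 0.944. That of Efna4 ranged from -0.069 to -0.014 with 1 library left out. Without Chd8+/- replicate 2, the library with high meningeal genes, the log2 fold change of Efna3 went from -0.03 to 0.12, that of Efnb2 from -0.02 to 0.07, that of Efnb1 from -0.01 to 0.07 and that of Efna5 from 0.07 to -0.07, and none of the 8 was called.

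At P5 the log2 fold changes were between -0.16 for Efna1 and 0.19 for Efna4. Single libraries moved the larger estimates by over 1.5 times. Leaving out Chd8+/+ replicate 2 gave 0.087 for Efna4, leaving out Chd8+/- replicate 1 gave 0.093, and leaving out Chd8+/- replicate 3 gave 0.30. That of Efna1 was -0.28 without Chd8+/+ replicate 3 and -0.093, -0.090 and -0.093 without Chd8+/+ replicate 1, Chd8+/+ replicate 2 and Chd8+/- replicate 1. That of Efna5 was 0.064 without Chd8+/+ replicate 2. That of Efnb1 was between 0.033, without Chd8+/+ replicate 3, and 0.12, without Chd8+/- replicate 2, and that of Efnb3 between 0.019, without Chd8+/- replicate 1, and 0.064, without Chd8+/- replicate 3. An unadjusted edgeR p under 0.05 was reached by Efna1 without Chd8+/+ replicate 3 (0.0454, adjusted p = 0.265) and by Efna5 without Chd8+/- replicate 1 (0.0471, adjusted p = 0.406). None of the 8 was called with any library left out. Efna5 had the lowest p, with a change of 8.99% (95% confidence interval -1.66 to 20.8%, edgeR adjusted p = 0.360), and its Chd8+/- values of 5.71, 6.23 and 6.18 RPKM overlapped with the Chd8+/+ values of 5.82, 5.12 and 5.86 RPKM. The most abundant genes were the most tightly bounded. Efnb3 changed by 2.44% (-3.31 to 8.54%), Efnb2 by -0.869% (-6.51 to 5.12%), Efna3 by 0.662% (-5.68 to 7.43%), Efna2 by 2.09% (-6.59 to 11.6%) and Efnb1 by 5.04% (-4.58 to 15.6%). The low genes Efna1 (-27.9 to 10.98%) and Efna4 (-7.48 to 41.0%) were bounded loosely. For comparison, the counts of Chd8 itself, taken over all its exons, were lower by 34.5% at P5 and 29.7% at E12.5. The paper's qRT-PCR at an edge of the deleted exon gave larger reductions at both stages. In the same P5 libraries the 8 striatal neuron genes of the marker list summed to 322.1 to 353.5 CPM in Chd8+/+ and 228.0 to 291.2 CPM in Chd8+/-, and all 8 had an unadjusted p under 0.05. The 6 choroid plexus genes summed to 442.2 to 573.9 and 321.7 to 380.4 CPM, and all 6 had such a p. The 8 interneuron genes, at 637.7 to 655.1 and 547.7 to 615.2 CPM, and the 6 mural cell genes, at 257.4 to 276.1 and 234.8 to 247.9 CPM, were also lower in Chd8+/- without overlap, with 3 and 2 genes at such a p. The 10 progenitor genes overlapped, at 290.6 to 325.8 and 272.4 to 300.2 CPM, with 5 at such a p. No gene of these lists was called between the genotypes by edgeR with the main settings. The 10 endothelial genes summed to 276.2 to 311.2 CPM in Chd8+/+ and 248.1 to 272.5 CPM in Chd8+/- at P5, with 7 at an unadjusted p under 0.05, and to 306.8 to 316.9 and 272.5 to 289.3 CPM at E12.5, with 4 at such a p. Sums of microglial genes (29.06 to 29.45 and 25.14 to 28.43 CPM) and of astrocyte genes (359.9 to 382.7 and 393.7 to 400.3 CPM) also did not overlap at E12.5. In both lists 0 genes had such a p at E12.5, and 11.4% of single genes did not overlap there. In E12.5 Chd8+/+ the astrocyte genes Gfap and Aqp4 had means of only 0.167 and 1.02 CPM, against 141.5 CPM for Gja1 and 99.7 CPM for Slc1a3. The part of these marker differences between the genotypes in the ephrin values, among them those of Efna1 and Efnb2, was not tested.

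**Figure D5:**
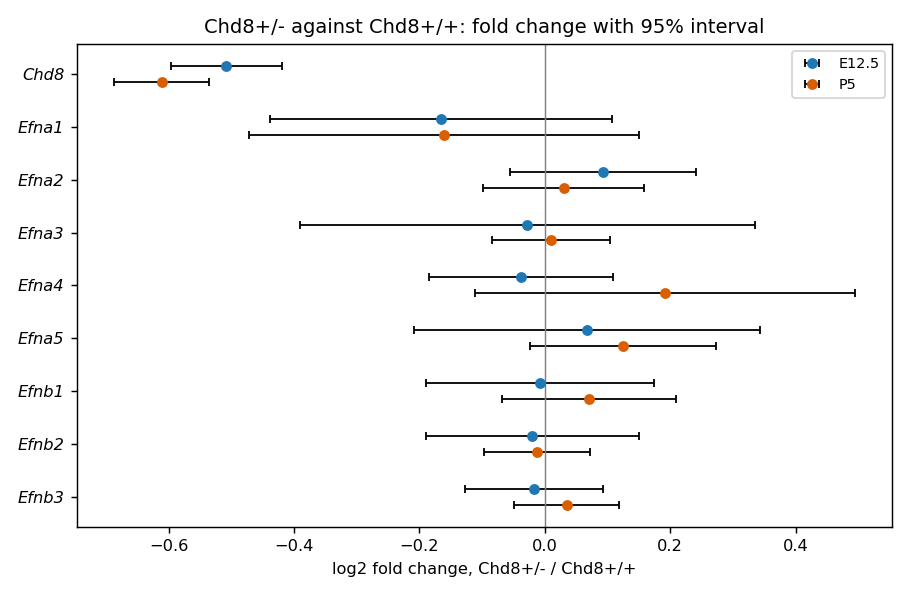
Log2 fold change of Chd8+/- against Chd8+/+ (horizontal) for Chd8 and the 8 ephrin ligand genes (rows), with the 95% confidence interval from edgeR, at E12.5 and at P5. The intervals of Chd8 lie below 0 at both stages, and those of all 8 ephrin genes include 0.

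The third comparison was the difference between the genotype effects at P5 and at E12.5. It was called for 0 of the 8 ephrin genes and 0% of 19676 genes by edgeR, which gave 10% of genes, and 0 of the 8, an unadjusted p under 0.05, and DESeq2 called 8 genes, none of them an ephrin. The largest estimate was that of Efna4, at 0.21 (log2, 95% confidence interval -0.11 to 0.53, edgeR adjusted p = 0.648), and it was 0.11 without P5 Chd8+/+ replicate 2 and 0.12 without P5 Chd8+/- replicate 1. Without P5 Chd8+/- replicate 3 it was 0.31, with an unadjusted edgeR p of 0.0483 and an adjusted p of 0.512. The estimates of the other 7 lay between -0.08 for Efna2 and 0.06 for Efnb1, and with 1 library left out these ranged from -0.13 to -0.0091 and from 0.00019 to 0.15, and that of Efnb3 from 0.016 to 0.11. For the genes with the largest stage changes the interval of this difference was -0.35 to 0.39 for Efna3, -0.17 to 0.30 for Efnb1 and -0.11 to 0.18 for Efnb3.

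Among the partners, 0 of the 14 Eph receptors and 0 of the 42 signalling genes were called by edgeR in either genotype comparison or in the interaction. At E12.5, 0 of the 14 receptors and 2 of the 42 signalling genes had an unadjusted p under 0.05. The share of all genes was 5.15% at E12.5. At P5 these counts were 5 and 12, where 17.8% of all genes had such a p, and DESeq2, with 5.28% of genes called, called 2 receptors and 2 signalling genes, all lower in Chd8+/-. The receptor log2 fold changes at P5 ran from -0.32 for Epha2 to 0.09 for Ephb6, and those of the signalling genes from -0.23 for Ptpn13 to 0.15 for Acp1. At E12.5 they ran from -0.28 for Epha6 to 0.60 for Epha10 and from -0.20 for Arhgef15 to 0.41 for Vav3, and in the interaction from -0.59 for Epha10 to 0.04 for Epha1 and from -0.51 for Vav3 to 0.32 for Arhgef15. Epha6 and Epha10 had under 0.4 mean RPKM at E12.5, so their estimates rest on few counts.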

How the data were processed

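RNA-seq counts of 12 neocortex libraries were used. The authors trimmed adaptors with Trim Galore 0.4.1, aligned paired-end reads to GRCm38.p4 with TopHat2 2.1.0 and counted them per Ensembl gene with featureCounts 1.5.0. The deposited unit is the raw count per gene, run and library, not normalized, beside each gene's merged exon length. Strand was not used for the P5 counts, and for E12.5 the command is not given in the sources used here, so reads of a gene and its antisense partner cannot be told apart.

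The 2 runs of each library, which agreed nearly within sampling noise (chi-square per gene 1.18 to 1.54, against 7.09 to 49.7 between libraries of a group), were summed. Symbols were found for 46005 of 46603 identifiers. Genotypes were compared within each stage, and stages within each genotype and the interaction over all 12 libraries, with edgeR 4.0.16 (R 4.3.3): TMM scaling, filterByExpr, quasi-likelihood test, Benjamini-Hochberg adjustment over all genes tested and a threshold of 0.05. RPKM and CPM used TMM library sizes over 12 libraries. A standard error comes from the same fit. The likeness measure used a pseudocount of 0.1 CPM. The biological coefficient of variation was 9.18% at E12.5 and 7.42% at P5. Each group has 3 libraries, and Efna1 and Efna4 had 114 to 225 counts per library at P5.

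The genes named are the 8 ephrins, Chd8, and of each partner list the 2 largest rises and 2 largest falls among the genes called, or the range. Receptors with an unadjusted p under 0.05 between the genotypes at P5 are named too. Grb4, an older name of Nck2, matched no row. The members and the lists of partners and cell type markers were chosen with earlier results of these data known. Alternatives were DESeq2 1.42.0, limma-voom (limma 3.58.1), RLE, upper quartile and library total scaling, no filter and a stricter filter, a threshold of 0.1, gene length offsets, other sets of libraries, a replicate block, each library left out, and TPM. A term for libraries with high Xist was added after seeing the data. Promoter windows were taken from RefSeq. The summed level of the neocortical marker list is not reported here.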

Additional observations from a re-analysis of the deposited data

How the results depend on the processing

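All 8 ephrin genes were called between the stages in both genotypes, 2 higher and 6 lower, under each of the 12 alternative settings and with each library left out. Offsets for gene length moved the median log2 fold change of all genes by the most, to -0.24 in Chd8+/+ and -0.20 in Chd8+/-, and the values of Efnb3 to 0.94 and 0.99, of Efnb2 to -1.09 and -1.06 and of Efna5 to -0.81 and -0.73, with no direction changed. The number called in either genotype comparison and in the interaction was 0 under every setting. With a replicate block the numbers called were 0 and 0 for genotype, 8 and 8 for stage and 0 for the interaction. Correlations of same-numbered genotypes were -0.156, -0.064 and -0.049 at E12.5, where those of different-numbered ones ran from -0.074 to 0.143. At P5 the same-numbered ones were 0.187, 0.078 and 0.038, and the different-numbered ones ran from -0.138 to 0.072. The replicate 1 library of each genotype was the library with high Xist at P5. Whether replicate numbers pair the libraries was not tested. Library total RPKM and TPM rescale all genes of a library alike, so they could not alter the order of levels within a library and test nothing about it.

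Estimates near 0 that were not called changed sign in places, and the cause was not tested. At P5 Efna3 was -0.0058 and Efnb2 0.0058 (log2 fold change) with gene length offsets, and Efna3 was -0.0066 with all 12 libraries in 1 model. The interaction of Efna1 was 0.014 and that of Efnb2 0.016 with library totals, 0.010 and 0.013 with upper quartile scaling, and that of Efnb2 0.027 with gene length offsets. With 1 library left out, the E12.5 genotype estimates ranged from -0.15 to 0.12 for Efna3, from -0.071 to 0.18 for Efna5, from -0.078 to 0.065 for Efnb1, from -0.070 to 0.069 for Efnb2 and from -0.065 to 0.019 for Efnb3. Those at P5 ranged from -0.020 to 0.061 for Efna2, from -0.024 to 0.032 for Efna3 and from -0.038 to 0.012 for Efnb2, and the interactions from -0.14 to 0.11 for Efna1, from -0.12 to 0.16 for Efna3, from -0.060 to 0.19 for Efna5 and from -0.087 to 0.062 for Efnb2. Over all settings the number of genes called for genotype ranged from 0 to 13 at E12.5 and from 1 to 995 at P5.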
